A study of Homo sapiens with 15 samples.

Results

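The 10 genes described here, of the fibroblast growth factor (FGF) pathway, were followed through the differentiation of H1 human embryonic stem cells towards heart muscle. They were 4 ligand genes (FGF2, FGF4, FGF8 and FGF10), the 4 receptor tyrosine kinase genes (FGFR1, FGFR2, FGFR3 and FGFR4) and 2 feedback inhibitor genes (DUSP6 and SPRY4). Each was chosen by its symbol in the GENCODE annotation, and all 10 were found among the 48777 genes listed in the deposited tables. H1 is an established line, and 3 bulk RNA-seq libraries were made on each of days 0, 4, 9, 11 and 20, 15 in all. Undifferentiated cells (day 0) grew in Nutristem medium on laminin. The labels give a matrix of the laminins LN-521+LN-221 for every day, but the deposited sample table lists L521 alone for day 0. Cells were confluent on day 4, when CHIR99021, an inhibitor of GSK3 that activates Wnt signalling, was added for a day in RPMI 1640 medium with B27 without insulin. IWP2, which blocks the secretion of Wnt ligands, was added on day 7 for 2 days, so that day 9 cells had seen both compounds. Day 11 and day 20 cells were kept in RPMI 1640 with B27 after that. All libraries come from 1 cell line. The study calls the libraries of a day biological replicates, and the labels do not say whether they were separate differentiations. The p-values below therefore measure only the spread between these libraries, which may be partly technical.

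FGF ligands are secreted proteins that bind FGF receptors together with heparan sulfate, and the receptors then signal through the adaptor FRS2 and the RAS-ERK cascade. ERK activity switches on the genes of its own inhibitors, among them the phosphatase DUSP6 and the Sprouty protein SPRY4, so that the level of these genes is often read as a trace of recent signalling. FGF2 keeps human pluripotent cells undifferentiated in culture, whereas FGF8 and FGF10 are ligands of the gastrulating embryo and of the second heart field, the progenitors that add to the early heart tube.

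The 10 genes changed places over the course. Of the 4 ligand genes, FGF2 and FGF4 were the highest in the stem cells and fell between days 4 and 9. FGF10 and the feedback gene DUSP6 rose over the same interval. FGF8 stood highest on day 11. DUSP6 and SPRY4 fell between days 11 and 20. FGFR1 was the leading receptor gene on days 0 and 4 and was lower at every later sampled day, while FGFR3 made up more of the receptor transcripts on day 11 than on day 4 in every library.

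The libraries held from 11990302 to 33469703 counts (median 22867831). The cell states followed the labels in part. The summed TPM (transcript abundance scaled for gene length and library depth) of 6 pluripotency markers was 4624 to 6651 on days 0 and 4, and 66.6 to 108 on day 20. The sum of 8 cardiac markers was at most 14.2 on days 0 and 4, and on day 20 it was 21383, 21058 and 4995 in plates 2, 2_3 and 6_1. Endoderm and hepatic markers (7 genes) were all above 1 TPM in every library from day 9 on. On day 9 they summed to 446 to 1156 TPM and the cardiac markers to 543 to 1421 TPM. On day 11 these sums were 771 to 1925 and 3764 to 20594 TPM. On day 20 the endoderm and hepatic markers summed to 16365 in plate 2, 646 in plate 2_3 and 19141 in plate 6_1. Day 20 plate 2_3 stood apart in quality. Its RNA integrity number was 6.1, against 8.8 to 10 in the others. It held counts for 99.6% of 252 genes picked as nearly silent on days 0 to 11, at a median of 9.81 reads per kilobase. Day 20 plates 2 and 6_1 held counts for 16.7% and 67.1% of these genes, at medians of 0 and 0.588. Genes that turned on by day 20 were not told apart from background. At 9.81 reads per kilobase, background would give 105% of the FGF4 counts of plate 2_3 and between 5.65% and 37.5% of those of the other 9 genes. In bulk RNA, fewer cells of a type and less RNA per cell cannot be told apart.

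FGF2 (ENSG00000138685, chromosome 4: 122826682 to 122898236, plus strand, GRCh38) encodes a ligand that leaves cells without a signal peptide. Its level was 133, 216 and 97.2 TPM in day 0 replicates 1, 2 and 3, and 88.5, 131 and 111 TPM in day 4 plates 1, 2 and 5. On day 9 it was 15.5, 14.2 and 9.98 TPM in plate 2, plate 6_1 and the library without a plate number. All 6 early libraries lay far above all 3 of day 9. The level was 9.46, 4.55 and 8.32 TPM in day 11 plates 2, 5 and 6, and 2.95, 6.66 and 5.80 TPM in day 20 plates 2, 2_3 and 6_1. The order of the days was thus 0, 4, 9, 11 and 20, with replicates overlapping between days 0 and 4 and between days 11 and 20. Exons of NUDT6 lie on the opposite strand of FGF2, and whether the authors counted reads by strand is not given, so reads of the pair may be mixed.

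FGF4 (ENSG00000075388, chromosome 11: 69771022 to 69775341, minus strand), a ligand gene driven in pluripotent cells by the factors OCT4 and SOX2, was the other of the 4 ligand genes that stood highest on the early days. It was at 19.9, 8.96 and 8.69 TPM on day 0 and at 14.5, 21.6 and 15.8 TPM on day 4, in the same order of libraries. On day 9 it was at 0.689, 0.736 and 0.837 TPM, and on day 11 at 0.316, 0.536 and 0.247 TPM. The lowest early library lay far above the highest of days 9 and 11. On day 20 it held 0, 30 and 5 counts, and the 30 counts were those of plate 2_3, where 31.6 would be expected from background alone. FGF4 and FGF2 followed each other over the 15 libraries (Pearson r = 0.93 of log2(TPM + 1)), as a description, since the libraries of a day share their day.

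FGF10 (ENSG00000070193, chromosome 5: 44300247 to 44389706, minus strand) marks the second heart field in the embryo, and its product binds mainly the epithelial form of FGFR2. It held 6, 12 and 2 counts on day 0 and 0, 3 and 9 counts on day 4, at most 0.485 TPM. On day 9 it held 1392, 870 and 2733 counts, or 93.6, 52.9 and 123 TPM. It went from close to nothing to one of the higher ligand levels of the series. The level was 22.9, 26.5 and 36.5 TPM on day 11 and 11.3, 16.8 and 13.5 TPM on day 20. No day 11 library reached the lowest of day 9, and no day 20 library reached the lowest of day 11. Relative to all counts, the day 9 libraries together held 506 times the FGF10 counts of day 4, with a 95% exact interval from 290 to 981 that covers counting error only. FGF10-AS1 is annotated on the opposite strand.

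FGF8 (ENSG00000107831, chromosome 10: 101770109 to 101780371, minus strand), a ligand of the primitive streak and the second heart field, behaved unlike the other 3. It was at 2.06, 5.74 and 2.02 TPM on day 0, at 3.87, 2.99 and 2.43 TPM on day 4 and at 7.36, 3.39 and 10.8 TPM on day 9. On day 11 it was at 58.9, 192 and 40.4 TPM in plates 2, 5 and 6, and on day 20 at 7.23, 15.6 and 2.56 TPM. Every day 11 library lay above every other library of the series, but the day 11 libraries themselves spread widely. The summed cardiac markers on day 11 had the same order, with 5956, 20594 and 3764 TPM in plates 2, 5 and 6. The sums of endothelial markers (102, 152 and 80.6 TPM) and neural markers (494, 1357 and 308 TPM) had it too. The neural sum was nearly all NES, at 306 to 1355 TPM on day 11 and already 305 to 369 TPM on day 0. PAX6, SOX1 and TUBB3 were at most 0.248, 0.0678 and 2.42 TPM on day 11. In the endothelial sum, TEK was at 78.2 to 90.9 TPM on day 11 and 44.6 to 94.3 TPM on day 0. The sums of endoderm and of mesenchyme markers had the reverse order. The part of any of these cells in the FGF8 level was not tested.

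**Figure D1:**
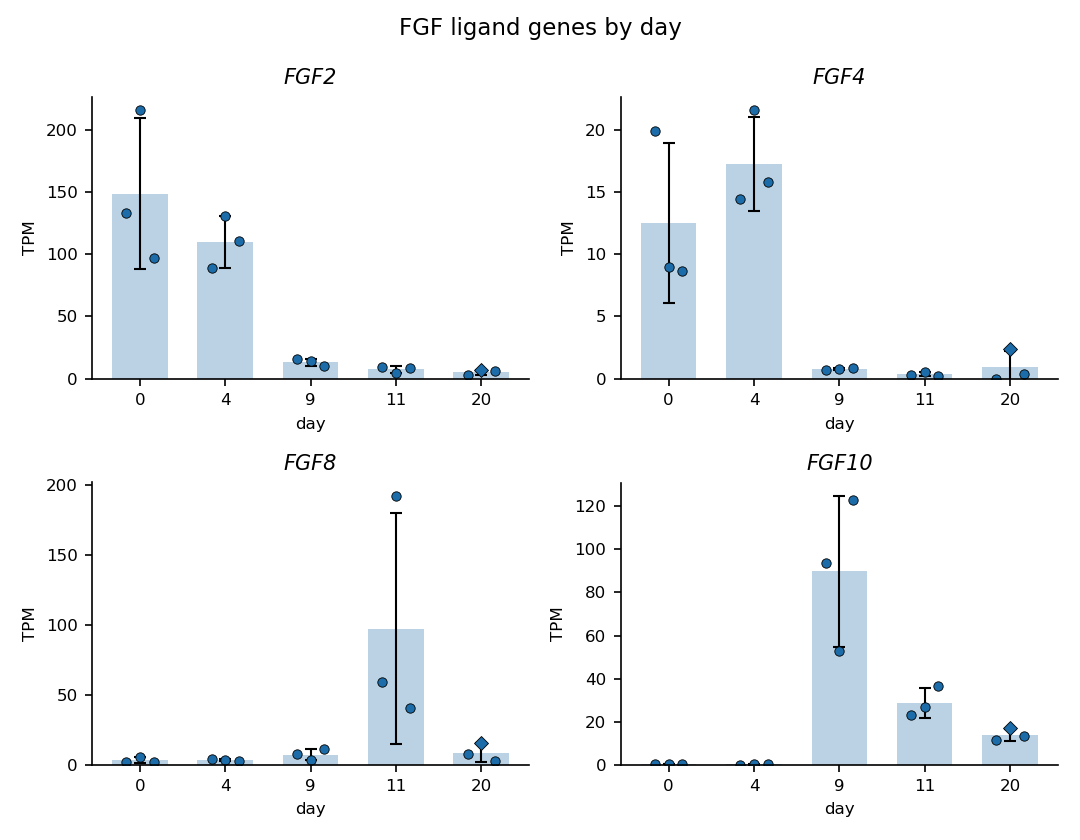
Levels of the 4 FGF ligand genes (TPM, linear axes from 0) against day of differentiation. Bars are means, error bars SD and points the 3 libraries of a day, with the diamond marking day 20 plate 2_3. FGF2 and FGF4 are high on days 0 and 4, FGF10 peaks on day 9 at 52.9 to 123 TPM, and FGF8 on day 11 at 40.4 to 192 TPM.

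The makeup of the 4 ligand transcripts changed at each step from day 4 on. Their sum was 131 ± 24.2 TPM (SD, n = 3) on day 4, 111 ± 37.0 on day 9, 134 ± 78.1 on day 11 and 28.4 ± 11.3 on day 20. FGF2 made up 82.8% to 93.4% of it in the 6 libraries of days 0 and 4, and FGF10 made up 74.2% to 85.0% on day 9. On day 11, FGF8 made up 64.3%, 85.9% and 47.3% in plates 2, 5 and 6, and FGF10 25.0%, 11.9% and 42.7%. FGF10 was again the larger share on day 20, at 52.7%, 40.6% and 60.8%. These shares rest on the gene lengths the authors used. For FGF10 the counts and TPM imply a length of 3013 bases, where the GENCODE v44 exons cover 6399, so its share would be lower with the longer gene model.

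Among the receptors, FGFR1 (ENSG00000077782, chromosome 8, minus strand), the main FGF receptor of pluripotent cells, was the most abundant on the early days. It was at 434, 174 and 321 TPM on day 0 and at 432, 390 and 392 TPM on day 4. On day 9 it was at 238, 226 and 309 TPM, and on day 11 at 135, 112 and 110 TPM. By day 20 it was at 39.9, 44.2 and 56.0 TPM. The libraries of days 4, 9, 11 and 20 did not overlap between successive days, each day being lower than the one before. Day 0 overlapped with day 4 and with day 9, through replicate 2 at 174 TPM. Exons of LETM2 and of a gene without a symbol lie on the opposite strand.

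FGFR2 (ENSG00000066468, chromosome 10: 121478332 to 121598458, minus strand) encodes a receptor whose splice forms divide between epithelium and mesenchyme, which a gene count does not separate. Its level was 240, 119 and 137 TPM on day 0, 209, 216 and 225 TPM on day 4 and 117, 166 and 161 TPM on day 9. On day 11 it was 89.7, 42.9 and 161 TPM in plates 2, 5 and 6, and on day 20 it was 29.6, 28.6 and 149 TPM in plates 2, 2_3 and 6_1. Day 4 lay above day 9 in every library, but days 11 and 20 overlapped widely, because 1 library of each stayed near 150 TPM. The summed mesenchyme and fibroblast markers (6 genes) were also highest in those libraries, with 3366, 1203 and 7310 TPM on day 11 and 3173, 1198 and 24359 TPM on day 20. So were the summed endoderm and hepatic markers, with 1396, 771 and 1925 TPM on day 11 and 16365, 646 and 19141 TPM on day 20. The summed cardiac markers were lowest in them. The part of any of these cells in the FGFR2 level was not tested.

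FGFR3 (ENSG00000068078, chromosome 4: 1793293 to 1808872, plus strand), known best from the growth plate, passed the test in none of the comparisons below. It was at 127, 39.1 and 114 TPM on day 0, at 177, 165 and 117 TPM on day 4 and at 169, 167 and 220.6 TPM on day 9. It stayed at 186, 125 and 184 TPM on day 11, and was at 106, 31.1 and 129 TPM on day 20. Neighbouring days in the order of their means (9, 11, 4, 0 and 20) all overlapped, but every day 9 library lay above every library of days 0 and 20. The 2 lowest libraries were day 20 plate 2_3 and day 0 replicate 2.

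FGFR4 (ENSG00000160867, chromosome 5: 177086905 to 177098144, plus strand), a receptor of endoderm and liver, was at 130, 106 and 97.0 TPM on day 0, 104, 124 and 143 TPM on day 4 and 112, 104 and 171 TPM on day 9. On day 11 it was at 58.6, 51.8 and 59.3 TPM, below all 9 earlier libraries. On day 20 it was at 102, 10.9 and 35.5 TPM in plates 2, 2_3 and 6_1, with no common level. The summed hepatic markers were low in plate 2_3 (646 TPM), where FGFR4 was lowest, but plate 6_1 had more of them than plate 2 and less FGFR4. Their part in the FGFR4 level was not tested.

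**Figure D2:**
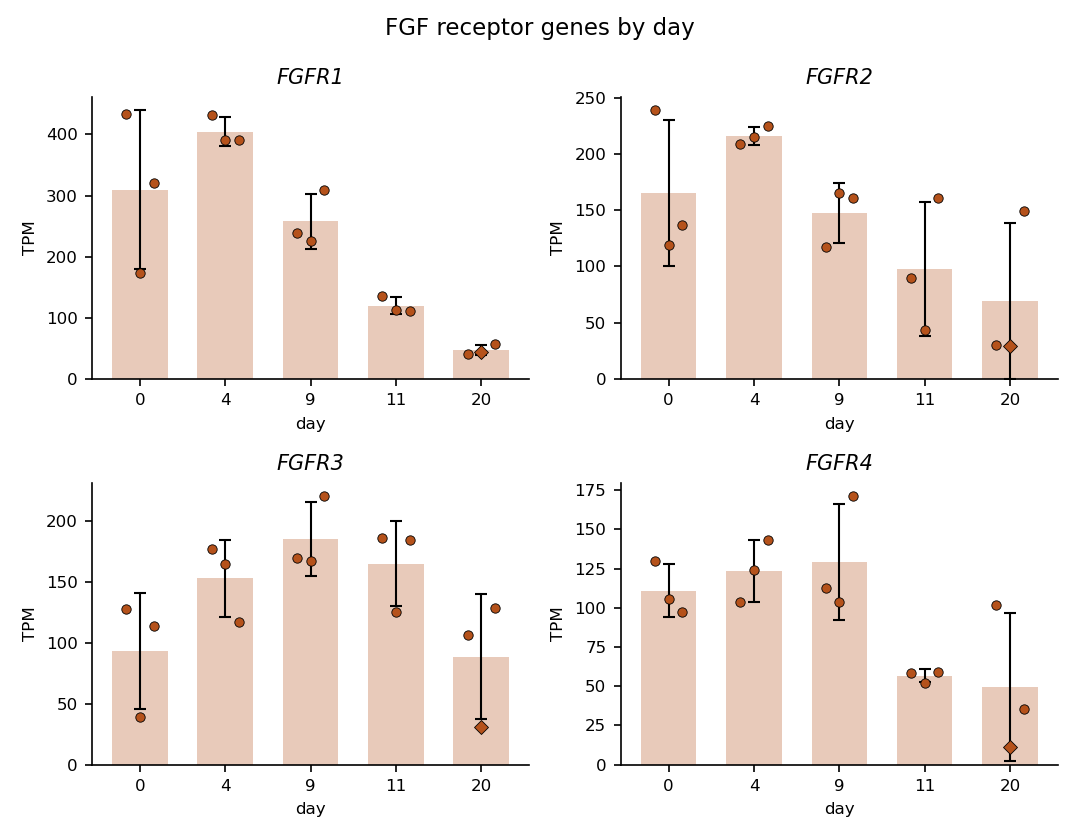
Levels of the 4 FGF receptor genes (TPM, linear axes from 0) against day, drawn as means with SD and the 3 libraries of a day, the diamond marking day 20 plate 2_3. FGFR1 falls from 390 to 432 TPM on day 4 to 39.9 to 56.0 TPM on day 20, while FGFR2 and FGFR4 spread widely among the day 20 libraries.

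The receptor makeup shifted from FGFR1 towards FGFR3. The 4 genes summed to 898 ± 21.8 TPM (SD, n = 3) on day 4, 721 ± 123 on day 9, 439 ± 95.4 on day 11 and 254 ± 129 on day 20. FGFR1 gave 46.9%, 43.6% and 44.6% of the sum on day 4, 37.4%, 34.2% and 35.9% on day 9, and 28.8%, 33.8% and 21.4% on day 11. FGFR3 gave 19.2%, 18.4% and 13.4% on day 4, 26.6%, 25.2% and 25.6% on day 9, and 39.6%, 37.6% and 35.8% on day 11. For the FGFR3 share the 3 days did not overlap, and on day 11 it was the largest share in all 3 libraries. The FGFR3 level itself averaged 153, 186 and 165 TPM on days 4, 9 and 11 and passed in no comparison, while the sum fell. The day 20 libraries had no common makeup. FGFR3 with FGFR4 led in plate 2 (38.3% and 36.7%), FGFR1 in plate 2_3 (38.5%) and FGFR2 in plate 6_1 (40.4%). These shares too rest on the gene lengths the authors used. For FGFR2 the counts and TPM imply 7486 bases and for FGFR1 12698, where the GENCODE v44 exons cover 18813 and 17201. The FGFR2 share, with its lead in plate 6_1, thus depends on the gene model.

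**Figure D3:**
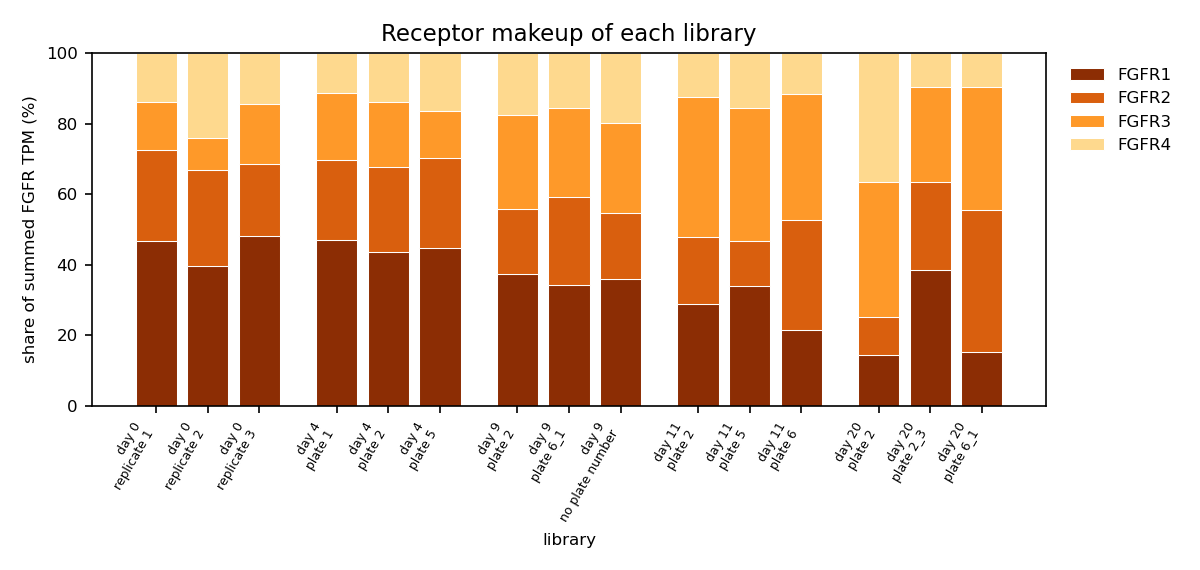
Share of each receptor gene in the summed TPM of the 4 receptor genes, in percent, for each of the 15 libraries grouped by day. The FGFR1 part shrinks from 43.6% to 46.9% on day 4 to 21.4% to 33.8% on day 11 as the FGFR3 part grows to 35.8% to 39.6%, and the 3 day 20 libraries differ from one another.

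DUSP6 (ENSG00000139318, chromosome 12: 89347235 to 89352501, minus strand) encodes the phosphatase that removes the activating phosphates of ERK in the cytoplasm, and is induced through ETS factors downstream of FGF signalling. Its promoter is shown because DUSP6 had the widest change of the feedback genes and its upstream sequence holds the ETS core CGGAA more than once. These are the 250 bases before the start, from RefSeq (GRCh38.p14, chr12:89352502-89352751, minus strand, 5′ to 3′), with each core on either strand in capitals.
DUSP6: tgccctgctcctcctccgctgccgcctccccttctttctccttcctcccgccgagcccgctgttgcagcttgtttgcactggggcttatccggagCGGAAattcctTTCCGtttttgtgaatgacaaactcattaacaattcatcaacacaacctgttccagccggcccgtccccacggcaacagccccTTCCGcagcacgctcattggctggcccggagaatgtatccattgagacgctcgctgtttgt
The window held 3 cores and 1 CCAAT box. A core of these letters stood in 30.3% of 35116 promoter windows of that length, and CCAAT in 32.01%. No other window of the 7 members with a RefSeq entry held CGGAA on either strand. Among these, the bases upstream of a SPRY4 start (chr5:142324418-142324497, minus strand), which end 170 bases before that start because an annotated exon lies between, are set beside it as the other feedback gene.
SPRY4: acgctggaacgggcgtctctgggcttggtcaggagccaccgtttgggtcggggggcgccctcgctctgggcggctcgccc
A match is a description of letters, and no match says only that the letters are not in this window. All motifs were searched on both strands and chosen with the sequences in view. The TCF/LEF motif CTTTGA stood in no window of the members, against 11.21% of all windows. The octamer ATGCAAAT stood in none either, against 1.632%. The CRE core TGACG stood once each in the FGF2 and SPRY4 windows, outside the SPRY4 stretch printed here, against 21.22% of all.

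DUSP6 was at 6.85, 31.0 and 3.34 TPM on day 0 and at 3.21, 7.97 and 12.7 TPM on day 4. On day 9 it was at 187, 320 and 177 TPM, and on day 11 at 270, 309 and 243 TPM. Every library of days 9 and 11 lay far above every library of days 0 and 4. On day 20 it was back at 20.9, 20.0 and 23.7 TPM, with plate 2_3 no different from the others. A gene without a symbol lies over DUSP6 on the opposite strand.

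SPRY4 (ENSG00000187678, chromosome 5: 142310427 to 142326455, minus strand), an inhibitor acting between the receptor and ERK, moved the same way over a narrower range. It was at 12.2, 53.2 and 7.52 TPM on day 0, at 7.13, 15.7 and 20.4 TPM on day 4 and at 32.7, 18.3 and 48.3 TPM on day 9. On day 11 it was at 50.8, 97.8 and 33.9 TPM, and on day 20 at 17.3, 13.7 and 10.3 TPM. Day 11 lay above days 4 and 20 in every library, and day 9 overlapped with days 0, 4 and 11. Day 11 plate 5, the library with the most SPRY4, was also the one with the most FGF8. Among the day 11 libraries it also had the highest summed cardiac markers and the lowest summed mesenchyme and endoderm markers. A link between any of these was not tested.

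Day 0 replicate 2 stood apart from the other day 0 libraries in these genes. It was the highest of the 3 in 17 of the 21 feedback and target genes that reached 1 TPM in a day 0 library. The share of all genes highest in it was not worked out, so this count has no background beside it. One feature held 20.0% of the TPM of replicate 3, which lowers the other values of that library. SPRY3, the gene left out as too low, was lowest in replicate 2, at 0.040 TPM. DUSP6 was at 6.08 times and SPRY4 at 5.38 times the mean of the other day 0 libraries. The ETS genes ETV4 and ETV5, which FGF signalling induces, were at 4.66 and 4.75 times that mean. These were the largest ratios of the 21 genes. DUSP9, EGR1, FOS and PHLDA1 were not highest in replicate 2, at 0.773, 0.736, 0.991 and 0.954 times that mean. FGFR1 and FGFR3 were at 0.460 and 0.324 times that mean in the same library. Without it, the day 4 against day 0 estimates for FGF8, DUSP6 and SPRY4 changed sign.

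**Figure D4:**
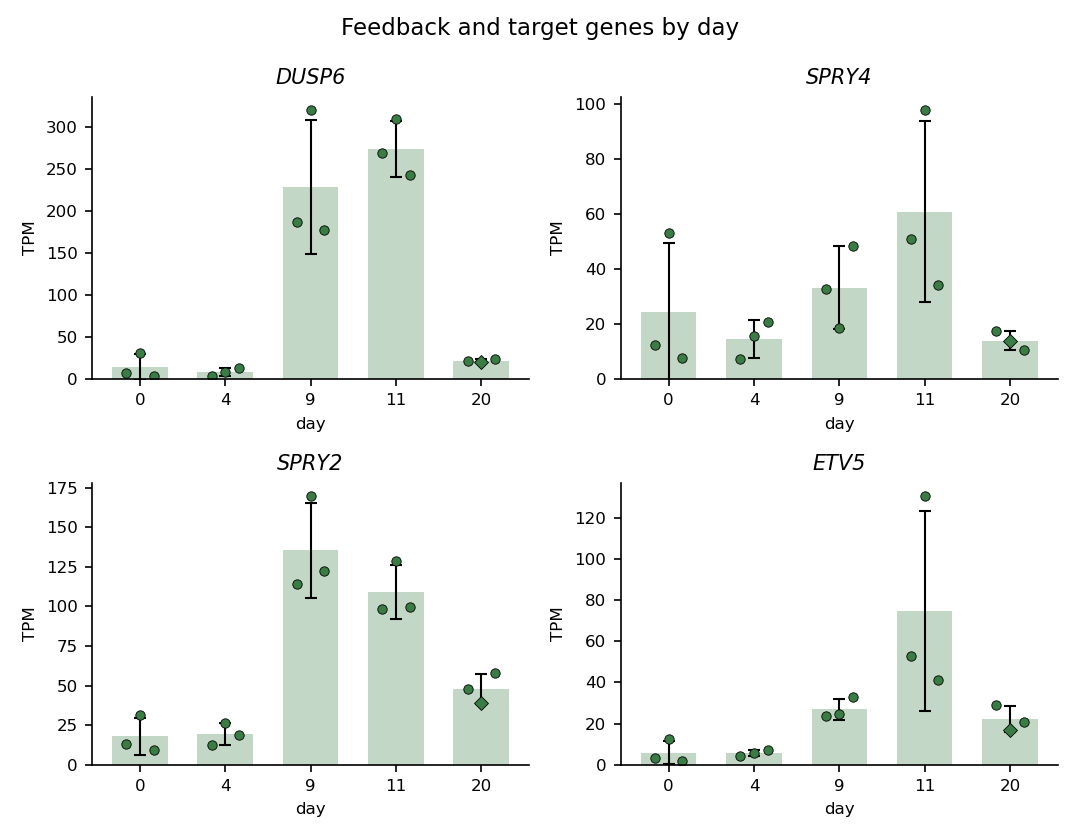
Levels of DUSP6, SPRY4, SPRY2 and ETV5 (TPM, linear axes from 0) against day, as means with SD and the 3 libraries of a day, the diamond marking day 20 plate 2_3. DUSP6 is at 177 to 320 TPM on days 9 and 11 and at most 31.0 TPM on the other days. The single high day 0 point in each panel is replicate 2.

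The first comparison, day 4 against day 0, sets confluent cells before CHIR99021 against the starting stem cells, and the laminin listed for them differs in the sample table. With edgeR's quasi-likelihood test, 0 of the 9 members tested passed an adjusted p of 0.05, against 0% of the 20964 genes tested. At an unadjusted p under 0.05 the counts were 0 of 9 and 741 of 20964. FGF10 was too low to be tested. DESeq2 and limma also called 0 members. The log2 differences lay between -0.82 ± 0.81 (SE) for DUSP6 and 0.62 ± 0.45 for FGFR3, and the adjusted p-values were 0.885 to 0.95. The standard errors of DUSP6 and SPRY4 (0.81 and 0.72) were the widest of the 9, so a difference of a similar size could not have been seen for them.

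Day 9 against day 4 spans the exposure to CHIR99021 and IWP2. By edgeR, 7 of the 10 members passed an adjusted p of 0.05, against 49% of the 21252 genes tested. FGF2 fell by 3.04 on the log2 scale (SE 0.21, adjusted p = 2.00e-05) and FGF4 fell by 4.48 (SE 0.25, adjusted p = 5.84e-06). FGF10 rose by 8.82 (SE 0.68, adjusted p = 5.10e-05), a value that depends on how the fit treats the 12 counts of day 4. DUSP6 rose by 4.86 (SE 0.49, adjusted p = 0.000192). These 4 calls held in all 15 alternatives, including each library left out in turn.

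The other 3 calls of that interval were smaller. FGFR1 fell by 0.62 (SE 0.17, adjusted p = 0.0162) and FGFR2 fell by 0.54 (SE 0.14, adjusted p = 0.0124). FGF8 rose by 1.25 (SE 0.45, adjusted p = 0.0462). The FGF8 call held in 6 of 15 alternatives and was lost without any of 5 of the 6 libraries (adjusted p 0.0725 to 0.142), day 9 plate 6_1 being the exception. The FGFR1 call was lost without day 4 plate 1 (adjusted p = 0.051), day 9 plate 2 (0.0601) or day 9 plate 6_1 (0.0524), and the FGFR2 call without day 9 plate 2 (0.0553). SPRY4, FGFR3 and FGFR4 did not pass, with log2 differences of 1.25 (SE 0.46, adjusted p = 0.0546), 0.30 (SE 0.20) and 0.09 (SE 0.23). Without day 9 plate 6_1, SPRY4 passed at an adjusted p of 0.00866, and without day 4 plate 5 at 0.0498.

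Day 11 against day 9 compares the committed cardiac progenitors of the study with the earlier progenitors. Here 3 of the 10 members passed by edgeR, against 2.39% of the 20679 genes tested. FGF8 rose by 3.65 on the log2 scale (SE 0.71, adjusted p = 0.0490). FGFR1 fell by 1.17 (SE 0.20, adjusted p = 0.0327) and FGFR4 fell by 1.25 (SE 0.23, adjusted p = 0.0377). FGF10 had a log2 difference of -1.72 (SE 0.36) that missed the threshold at an adjusted p of 0.0565. DUSP6 (0.22, SE 0.22) and SPRY4 (0.79, SE 0.47) did not pass, nor did FGF2, FGF4, FGFR2 or FGFR3.

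All 3 calls were near the threshold. They held in 5 of 16 alternatives for FGF8 and in 7 of 16 for FGFR1 and for FGFR4, and the direction was the same in every one. FGF8 missed it without any of 5 of the 6 libraries (adjusted p 0.0537 to 0.216) and passed only without day 11 plate 5. FGFR1 and FGFR4 missed it likewise (0.0582 to 0.155 and 0.0816 to 0.147) and passed only without day 9 plate 6_1. In that last fit FGF10 passed as well, at an adjusted p of 0.0164.

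Between days 11 and 20, when cardiac markers were high in both, 2 of the 9 members tested passed by edgeR, against 1.55% of the 21398 genes tested. DUSP6 fell by 3.78 on the log2 scale (SE 0.31, adjusted p = 0.0124) and SPRY4 fell by 2.26 (SE 0.43, adjusted p = 0.0487). Both feedback genes of the set were thus among the genes called. FGF8 (-3.74, SE 0.74, adjusted p = 0.0526), FGFR1 (-1.46, SE 0.32, 0.0656) and FGF10 (-1.20, SE 0.29, 0.087) were lower but missed the threshold. Without plate 2_3, DUSP6 passed at an adjusted p of 0.0104 and SPRY4 did not, at 0.0826. DUSP6 missed the threshold without any 1 of the day 11 libraries (0.0822, 0.0734 and 0.0984 without plates 2, 5 and 6), and SPRY4 without any 1 of the 6 libraries (0.0527 to 0.199).

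**Figure D5:**
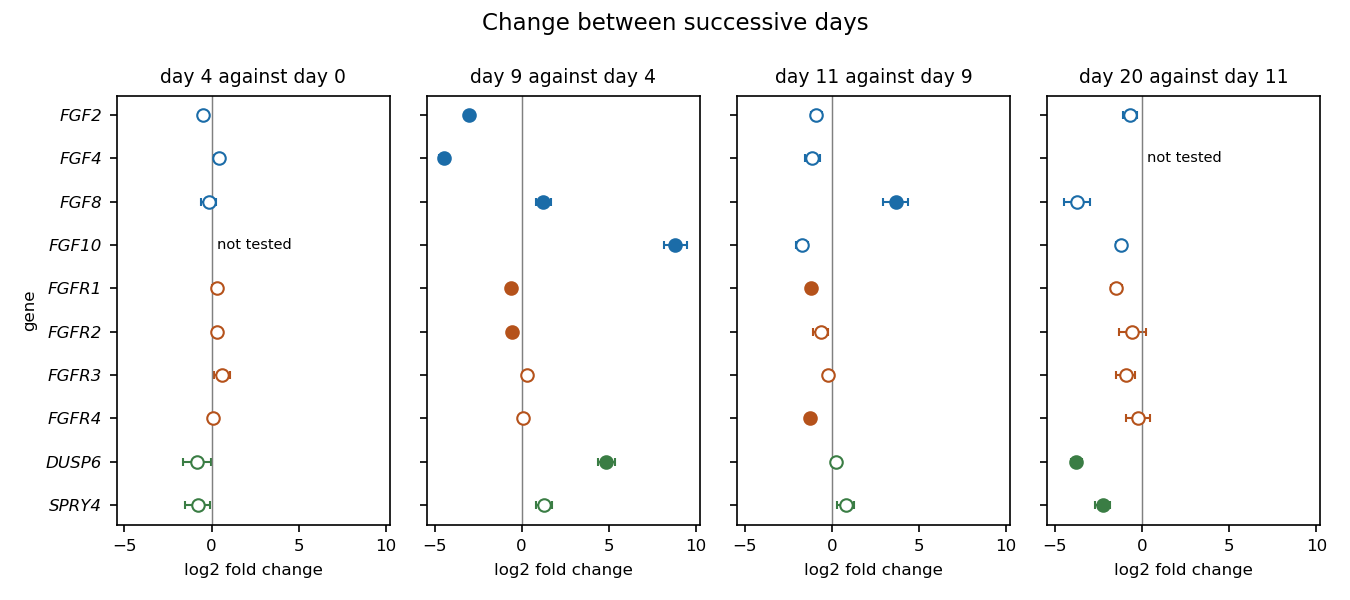
Log2 fold change of the 10 genes between successive days, from edgeR, with standard errors as bars. Filled points passed an adjusted p of 0.05 and open points did not, and colours separate ligands (blue), receptors (orange) and feedback genes (green). Day 9 against day 4 has 7 filled points, day 11 against day 9 has 3, day 20 against day 11 has 2 and day 4 against day 0 has none.

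The net comparison of day 20 with day 4 shares its libraries with the others. By edgeR 4 of 10 members passed, against 30.8% of the 22024 genes tested. FGF2 fell by 4.66 on the log2 scale (SE 0.35, adjusted p = 0.000468), FGFR1 fell by 3.30 (SE 0.33, adjusted p = 0.000872) and FGF4 fell by 4.70 (SE 1.07, adjusted p = 0.0154). FGF10 rose by 5.80 (SE 0.92, adjusted p = 0.00415). DUSP6 (1.26, SE 0.48, adjusted p = 0.0861) and SPRY4 (-0.26, SE 0.41) did not pass. Without day 20 plate 2_3, the library with 30 FGF4 counts, FGF4 fell by 6.85 (SE 0.81, adjusted p = 0.00110), and the day 20 mean went from 0.904 to 0.174 TPM. Among the fits with 1 library left out, FGF4 missed the threshold only without day 4 plate 2 (0.0627). FGFR2 passed without day 20 plate 6_1 (log2 difference -3.21, adjusted p = 0.00163) and FGFR4 without day 20 plate 2 (-2.59, adjusted p = 0.0274), the libraries in which each was highest on that day.

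The other secreted FGF genes were mostly low. Of 14 listed, 7 were tested between days 4 and 9, of which 1 rose and 4 fell (49% of all genes were called), with a median log2 difference of -1.53 against 0.01 over all genes. FGF17, a relative of FGF8, rose by 2.34 (SE 0.74, adjusted p = 0.0325), and the hormone-like FGF19 fell by 2.62 (SE 0.38, adjusted p = 0.000672). FGF17 was low, at 0.735, 0.255 and 0.641 TPM on day 4 and 3.26, 0.557 and 4.32 TPM on day 9. Its level in day 9 plate 6_1 (0.557 TPM) lay within the day 4 range. FGF23, FGF16 and FGF1 fell by 1.57, 1.56 and 1.53. None of 7 passed between days 9 and 11, against 2.39% of all genes called. Between days 11 and 20, 3 of 8 rose and none fell, against 1.55% of all genes called.

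Those 3 genes made the ligand set of day 20 a different one. FGF18, a ligand of mesenchyme and bone, was at 1.97, 2.72 and 2.01 TPM on day 11 and at 78.2, 68.0 and 32.5 TPM on day 20, a rise of 4.59 (SE 0.42, adjusted p = 0.0172). FGF7, a mesenchymal ligand that like FGF10 acts on the epithelial form of FGFR2, went from 0.487, 0.376 and 0.528 TPM to 15.9, 25.7 and 7.18 TPM, a rise of 4.91 (SE 0.47, adjusted p = 0.0172). FGF1, which binds all FGF receptors, was at 6.47, 9.38 and 2.68 TPM on day 20 and rose by 3.40 (SE 0.53, adjusted p = 0.0292). In each, the lowest day 20 library, plate 6_1, was above all day 11 libraries, and the highest FGF7 and FGF1 values were in plate 2_3. FGF18 exceeded all 4 member ligands in each day 20 library. Against day 4, FGF9 also rose, by 4.44 (SE 0.66, adjusted p = 0.00339).

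Among 20 other feedback and target genes of ERK signalling, 8 rose and 3 fell of 19 tested between days 4 and 9 (median 0.47), against 49% of all genes called. The phosphatase gene DUSP5 rose by 3.29, the Sprouty gene SPRY2 by 2.82 and the ETS gene ETV5 by 2.30 (SE 0.23, 0.26 and 0.24). ETV4 fell by 1.40, EGR1 by 0.95 and ETV1 by 0.78, so target genes of the pathway went both ways. SPRY2 was at 12.7, 26.5 and 18.7 TPM on day 4, 114, 170 and 122 TPM on day 9, 98.3, 129 and 99.9 TPM on day 11 and 47.5, 38.8 and 57.8 TPM on day 20. ETV1 rose by 1.43 (SE 0.17, adjusted p = 0.0147) between days 9 and 11, the only one of the 19 called then, against 2.39% of all genes. Between days 11 and 20 the phosphatase gene DUSP4 fell by 1.78 (SE 0.32, adjusted p = 0.0422), and 18 of 19 did not pass (median -0.46 against 0.07 over all genes). Of all genes tested, 1.55% were called then. DUSP5, at 228, 145 and 63.4 TPM on day 20, rose by 3.06 against day 4 (SE 0.48, adjusted p = 0.00412). In that comparison ETV5 (1.83), DUSP9 (3.28), DUSP7 (1.54) and ETV1 (1.27) also rose and ETV4 fell by 1.77, so that 6 of 19 were called against 30.8% of all genes. DUSP9 in day 20 plate 2_3, at 6.43 TPM, lay within the day 4 range of 5.66 to 9.52 TPM.

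Of 17 co-receptor and ligand-binding genes tested between days 4 and 9, 6 rose and 6 fell. Of all genes tested 49% were called, 5162 up and 5244 down. FLRT2 and FLRT3, membrane proteins that bind FGF receptors, rose by 2.76 and 2.68, and the glypican GPC6, a heparan sulfate carrier, rose by 2.19. The FGF carrier FGFBP3 fell by 3.71, GPC4 by 2.19 and the syndecan SDC1 by 1.86. FLRT2 rose again between days 9 and 11, by 1.82 (SE 0.21, adjusted p = 0.0147), and GPC1 rose between days 11 and 20, by 1.96 (SE 0.34, adjusted p = 0.0392), each the only one called of 17. Of all genes tested, 2.39% and 1.55% were called in these comparisons. On day 20 against day 4, 4 rose and 4 fell of 17, against 30.8% of all genes called. FLRT2 rose by 3.30 and KLB, the co-receptor of hormone-like FGFs, by 3.08, while FGFBP3 fell by 4.03 and GPC4 by 3.52.

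In the intracellular relay, 7 rose and 2 fell of 18 between days 4 and 9 (median 0.21), against 49% of all genes called. The adaptor genes FRS2 and FRS3 and the exchange factor SOS2 rose by 0.97, 0.79 and 0.92. The adaptor gene GRB2 fell by 0.55. None of the 18 passed between days 9 and 11 or between days 11 and 20, where 2.39% and 1.55% of all genes were called. On day 20 against day 4, 3 rose and 1 fell of 18, against 30.8% of all genes called. GAB1, SOS2 and SOS1 rose by 2.03, 1.14 and 0.79. Of 4 FGF homologous factor genes, whose products stay in the cell and bind sodium channels, FGF11 fell by 1.89 between days 4 and 9 and FGF13 rose by 1.27 between days 4 and 20.

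The genes with the most similar course were found by Pearson correlation of log2(TPM + 1) over the 15 libraries, among 17719 genes. These correlations are descriptions, because libraries share their day and most genes change between days. FGF10 was closest to PDGFRA (0.99), ISL1 (0.99) and BMP10 (0.99), of which ISL1 marks the second heart field and averaged 93.4 TPM on day 9, 34.6 on day 11 and 11.3 on day 20. FGF8 was closest to DGKB (0.95), CRHBP (0.94) and GANC (0.93), and CRHBP averaged 2.47, 257 and 8.35 TPM on days 9, 11 and 20. DUSP6 was closest to SPRY2 (0.96), HAPLN1 (0.95) and PRKD1 (0.95). FGF2 was closest to ZNF92 (0.99) and FGF4 to CRYBG1 (0.99). The receptors had ALPL (FGFR1, 0.96), GSDMD (FGFR2, 0.93), CRABP2 (FGFR3, 0.91) and PLCXD1 (FGFR4, 0.92) as nearest genes, and SPRY4 had UBN2 (0.90). Between members, DUSP6 correlated with FGF10 at 0.87 and with SPRY4 at 0.78, FGF8 with SPRY4 at 0.76 and FGFR1 with FGFR2 at 0.80.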

How the data were processed

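Bulk RNA-seq libraries of H1 cells (rRNA-depleted total RNA, 3 per day, 15 in all) were analysed from the deposited tables. Single-cell, qPCR, protein and animal data were not analysed here. Read pairs were mapped by the authors with STAR 2.5.2b to GRCh38 with Ensembl release 79 (the submitters' processing notes say hg38). Raw counts per gene from featureCounts 1.5.1 (submitters' processing notes) were deposited after mitochondrial and ribosomal RNA genes had been taken out. TPM values were made by the authors from these counts with unstated gene lengths and deposited as a second table. A deposited sample table adds the RNA integrity number (a score), the fraction of reads mapped uniquely and the sequencing lane. Days come from the labels, where day 9 stands in place of the day 7 of the methods. Table columns were tied to samples through the deposited sample table. Symbols, coordinates and overlaps come from GENCODE v44 (46872 of the 48777 listed genes matched), and promoters from RefSeq (GRCh38.p14, 7 of 10 members, 12 windows; FGF4, FGF8 and FGFR1 not used here).

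For each pair of days, edgeR 4.0.16 (R 4.3.3) was fitted to the counts of those 6 libraries alone, without covariates, after filterByExpr (minimum count 10, minimum total 15) and TMM scaling, and tested by its robust two-sided quasi-likelihood test. P-values were Benjamini-Hochberg adjusted over all genes tested, and called at 0.05. Standard errors are the absolute log2 fold change over the root of the F statistic. Levels are the deposited TPM. An exact permutation test of 3 libraries against 3 cannot go below p = 0.1, so no such p is given. Library totals (11990302 to 33469703 counts) and the spread between libraries set the standard errors. One feature held 20.0% of the TPM of day 0 replicate 3 and 17.0% of that of day 9 plate 2, against at most 2.54% in the others. No 2 libraries were identical.

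The alternatives were DESeq2 1.42.0, upper-quartile scaling, library size alone, all 15 libraries in one fit, no low-count filter, limma 3.58.1 on log2 TPM after adding 1 or 0.1 (genes with a mean of at least 1 TPM on a day) and without that filter, lane or plate number as a block, and each library left out in turn. TPM was also recomputed without the most abundant feature of each library, and day 20 without plate 2_3. The fits were tested on simulated counts.

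The members and gene lists were chosen with earlier results of these data known. Named genes are all members, up to 3 genes past the threshold with the largest rise and 3 with the largest fall per list and comparison, and the 3 genes closest to each member in log2(TPM + 1) among those with a mean of at least 5 TPM on a day. Levels of further genes, the remaining called genes of day 20 against day 4 and the genes compared in day 0 replicate 2 were chosen after their values were seen. One result that this rule would name is not reported here.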

Additional observations from a re-analysis of the deposited data

How the results depend on the processing

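Over 728 refits of single members, 626 kept their direction and side of the threshold, 58 lost and 28 gained a call, and 16 changed sign, none of them a call. All 60 TPM means moved by less than 1 SD. For day 20 without plate 2_3 this was fixed beforehand, because leaving out 1 of 3 libraries cannot move a mean that far. Between days 4 and 9 the count of 7 members became 4 with all 15 libraries in one fit and 4 to 7 with one library left out (4 without day 9 plate 2). Between days 9 and 11 the count of 3 became 1 with all 15 libraries, 0 in the 3 limma fits and 0 to 3 with one library left out. Between days 11 and 20 the count of 2 became 5 with DESeq2, 4 with all 15 libraries, 1 with the lane block and 0 to 1 with one library left out. For day 20 against day 4 it was 3 to 5 of 10 against 4, and for day 4 against day 0 it stayed at 0. With the plate number as a replicate block, 5 members passed between days 9 and 11 and 0 between days 11 and 20. The pairs of same-numbered libraries correlated at 0.14 and 0.36 in the first and between -0.17 and 0.37 in the second, so the number is not shown to pair samples. No paired analysis was possible by plate number for the other comparisons because they share fewer than 2 of these. With the lane as a block, 7 members passed between days 4 and 9 and 5 on day 20 against day 4.

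Estimates that changed sign were those of FGF8 on day 4 against day 0 (0.033 and 0.072 in limma after adding 1, with or without the filter, and 0.1, and -0.46 to 0.54 with one library left out), and with one library left out DUSP6 (-1.32 to 0.54), SPRY4 (-1.16 to 0.45) and FGFR4 (-0.016 to 0.19) there, FGFR4 on day 9 against day 4 (-0.16 to 0.29), and FGFR2 (-1.99 to 0.033) and FGFR4 (-1.39 to 0.28) on day 20 against day 11. FGFR3 on day 11 against day 9 was 0.10 under the replicate block, and SPRY4 on day 20 against day 4 was 0.021 and 0.030 in limma after adding 1, with or without the filter, and 0.1. The cause was not tested. Depth limits FGF10 on days 0 and 4, and FGF4 from day 9 on.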
